A study of Arabidopsis thaliana with 8 samples.

Results

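B-box proteins and the bZIP factors HY5 and HYH form a small set of transcription regulators around the switch from dark to light growth. The 34 genes described here are HY5 (AT5G11260), HYH (AT3G17609) and the 32 B-box (BBX) genes BBX1 to BBX32, taken by a list of gene codes that uses no measured value. They stand among 27416 gene models in the files. All 34 codes were looked up, and 30 of them had enough reads to be tested. BBX9, BBX10, BBX16 and BBX26 did not.

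RNA was sequenced from whole Arabidopsis thaliana seedlings of the Col ecotype, 4.5 days old, grown on medium with 1% sucrose. To induce germination, seeds had received white light for 12 h, then a germination period of 21 h whose light condition is not stated here. They had then spent 4 days in darkness at 22 °C. There were 4 groups of 2 libraries. Wild type that stayed in darkness is called WT dark. Wild type, the phyB mutant and the phyAB mutant, each given 1 h of red light (50 µmol per square metre per second), are called WT red, phyB red and phyAB red. By its name the phyB mutant carries a lesion in the gene of phytochrome B, the main red light receptor of light-grown plants. The phyAB mutant, likewise by its name, also lacks phytochrome A, which is abundant in dark-grown seedlings. The labels do not describe the alleles, and mutant libraries from darkness are not analysed here, so a difference between genotypes in red light may include one already present in darkness.

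In darkness the COP1/SPA ubiquitin ligase marks HY5 and many B-box proteins for degradation, and light-activated phytochromes inhibit that ligase. HY5 binds promoters at elements with an ACGT core and promotes the light programme of short hypocotyls, open cotyledons, pigments and chloroplasts. HYH is its homologue and partner. B-box proteins carry zinc-binding domains through which they contact other proteins, HY5 among them. Structural classes I and II hold tandem B-boxes and a CCT domain, class III a lone B-box and a CCT domain, class IV tandem B-boxes without CCT, and class V a lone B-box. BBX4, BBX11, BBX20, BBX21, BBX22 and BBX23 are known as promoters of light-type growth. BBX18, BBX19, BBX24, BBX25, BBX28, BBX30, BBX31 and BBX32 are known mainly as repressors of it or of partner proteins.

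The libraries held 15926547 to 22116924 counted reads, and 20716 genes were tested. Levels in CPM, which scale reads to library size, compare libraries. RPKM values are also divided by gene model length and compare genes. Log2 fold changes are given ± SE from edgeR's quasi-likelihood test, with n = 2 libraries per group. A gene is called changed at an adjusted p under 0.05 over all tested genes. The labels do not say that the libraries of a group come from separate cultures, so p-values measure only the spread between these libraries, which may be technical. Transcripts of the mutated genes were still counted: PHYB read 80.7 and 81.4 CPM for WT dark, 96.0 and 95.2 for WT red, 62.3 and 64.3 for phyB red, with 52.9 and 50.4 for phyAB red, and PHYA read 834 and 828 CPM for WT dark, 463 and 471 for WT red, 703 and 703 for phyB red, with 124 and 123 for phyAB red. Both were lowest in phyAB red. The 5 shoot markers and the 5 root markers were detected in every library.

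HY5 and several B-box proteins act at promoters with ACGT-core elements, and some members are themselves known targets. The 250 bases before the annotated start are therefore shown for the members that changed at least 8-fold in WT red against WT dark and whose window holds no other gene. The windows come from the RefSeq TAIR10.1 assembly, written 5′ to 3′ on the strand of the gene. They are chr3:6023594-6023843 for HYH (plus strand), chr1:18176390-18176639 for BBX17 (minus), chr4:6369951-6370200 for BBX23 (minus), chr4:8708591-8708840 for BBX30 (plus) and chr3:7709934-7710183 for BBX31 (minus). Capitals mark ACGT cores, and the longer G-box CACGTG that contains such a core.
HYH: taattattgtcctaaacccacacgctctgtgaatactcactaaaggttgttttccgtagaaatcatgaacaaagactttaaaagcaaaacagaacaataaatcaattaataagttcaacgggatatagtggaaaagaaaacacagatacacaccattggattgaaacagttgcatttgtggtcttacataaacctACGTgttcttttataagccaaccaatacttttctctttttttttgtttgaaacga
BBX30: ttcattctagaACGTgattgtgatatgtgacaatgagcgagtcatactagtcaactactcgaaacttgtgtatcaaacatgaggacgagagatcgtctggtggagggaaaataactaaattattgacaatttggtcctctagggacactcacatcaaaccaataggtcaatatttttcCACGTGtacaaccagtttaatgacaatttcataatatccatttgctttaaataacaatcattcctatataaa
BBX31: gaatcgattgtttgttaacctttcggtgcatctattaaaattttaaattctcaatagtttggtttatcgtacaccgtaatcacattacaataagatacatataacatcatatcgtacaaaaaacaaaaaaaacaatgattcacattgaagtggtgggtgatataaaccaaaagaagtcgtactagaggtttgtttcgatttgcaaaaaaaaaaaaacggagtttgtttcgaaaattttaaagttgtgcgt
BBX17: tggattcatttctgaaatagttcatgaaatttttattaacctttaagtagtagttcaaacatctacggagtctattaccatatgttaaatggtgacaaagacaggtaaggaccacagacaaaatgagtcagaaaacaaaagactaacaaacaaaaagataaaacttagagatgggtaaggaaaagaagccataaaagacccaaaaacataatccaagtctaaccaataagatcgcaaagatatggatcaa
BBX23: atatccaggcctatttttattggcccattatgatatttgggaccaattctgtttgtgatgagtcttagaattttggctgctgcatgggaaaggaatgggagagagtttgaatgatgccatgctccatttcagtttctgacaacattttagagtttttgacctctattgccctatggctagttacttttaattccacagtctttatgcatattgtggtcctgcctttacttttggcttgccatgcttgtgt
BBX30 held 1 G-box, which begins 72 bases before the start, and 1 further ACGT core. HYH held 1 ACGT core, and the windows of BBX31, BBX17 and BBX23 held neither motif. Both motifs read the same on either strand, and every G-box is also counted as an ACGT core. Over all 34 members, a G-box stood in 4 windows (BBX5, BBX9, BBX10 and BBX30), or 11.8%, beside 6.49% of the windows of 27443 protein-coding genes. An ACGT core stood in 16 windows, or 47.1%, beside 44.1%. Of the 16 members called higher in WT red than in WT dark, 2 held a G-box and 6 an ACGT core. Of the 9 called lower, 0 held a G-box and 3 an ACGT core. The 5 not called had 0 with a G-box and 4 with an ACGT core, and the 4 not tested had 2 and 3. These letters are a description of the windows and do not show binding.

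On the length-corrected RPKM scale, a few B-box genes held most of the family's transcript. Averaged over the 8 libraries, BBX24 (231 RPKM), BBX21 (170), BBX6 (145.5), BBX5 (127) and BBX4 (65.2) were highest, but the order differed between groups. In WT dark BBX21 (193 RPKM) and BBX6 (161) stood above BBX5 (106) and BBX24 (104). In WT red BBX24 (323) led BBX21 (155), BBX5 (147) and BBX6 (133). In phyB red BBX24 (373) was followed by BBX6 (177) and BBX21 (152), and in phyAB red BBX21 (181) by BBX24 (124) and BBX6 (110.2). These are means of 2 libraries, with no test between genes. BBX24, also called STO, represses light-type growth, and BBX21 (AT1G75540) promotes it. BBX24 made up 11.9% and 12.0% of the summed B-box RPKM of the WT dark libraries, 28.6% of both WT red ones, 28.6% and 29.1% for phyB red, and 15.2% of both phyAB red ones. BBX21 took 22.3% and 21.8% for WT dark, and 13.9% and 13.5% for WT red. Its phyB red shares were 11.6% and 11.9%, and its phyAB red shares 22.4% and 21.9%. Thus BBX21 had the larger share in WT dark and phyAB red, and BBX24 in WT red and phyB red.

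**Figure D1:**
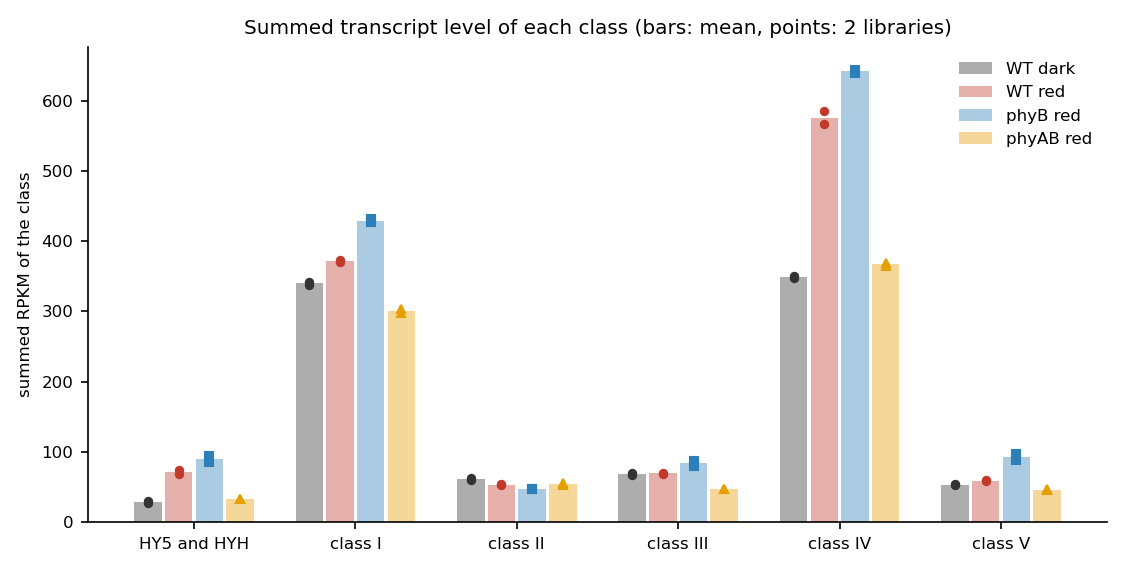
Summed RPKM (linear axis) of HY5 with HYH and of each B-box class in the 4 groups; bars are means and points are the 2 libraries. Class IV stood at 566 to 585 RPKM in WT red and 639 to 644 in phyB red, against 348 to 369 in WT dark and phyAB red, while class II varied least in RPKM, from 47.1 to 62.6.

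Summed over the 32 B-box genes, the level was 876 and 872 RPKM for WT dark, 1139 and 1121 for WT red, 1302 and 1288 for phyB red, with 813 and 820 for phyAB red. Between WT dark and WT red, class IV gave most of the difference. It read 351 and 348 RPKM for WT dark, and 585 and 566 for WT red. Most of that lay in BBX24, whose mean went from 104 to 323 RPKM. Other class IV genes moved both ways, such as BBX21 from 193 to 155 and BBX22 from 19.0 to 44.5. HY5 with HYH summed to 30.3 and 27.5 RPKM for WT dark, 68.8 and 74.4 for WT red, 94.1 and 86.2 for phyB red, with 33.8 and 32.9 for phyAB red. Class III also hid opposite movements. Its sum was 69.6 and 67.4 RPKM for WT dark, and 68.4 and 70.8 for WT red, while each of its tested members changed.

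Red light changed most of the set in wild type. Of the 30 tested members, 16 rose and 9 fell from WT dark to WT red, or 83.3%, and 5 did not pass. Over all tested genes 46.8% were called, 24.1% higher and 22.7% lower. At least 2-fold changes were called for 11 members upwards and 2 downwards, beside 7.10% and 2.70% of all genes. The median member log2 fold change was 0.33, and the median of all tested genes was 0.0022. BBX23, BBX30, BBX31 and BBX32 had under 10 reads in some libraries and entered the test through the groups where they are high. BBX1 had 8 reads in WT red replicate 2. The counts and medians of this contrast and of those below therefore only describe the tested members. In whole seedlings, fewer cells of a type and less RNA per cell cannot be told apart. The summed level of the shoot markers went from 696 and 705 CPM (WT dark) to 2597 and 2608 (WT red). All of these markers but STM are photosynthesis genes, and RBCS1A is also in the HY5-linked list below. The root marker sum, nearly all PYK10, went from 13736 and 13740 CPM (WT dark) to 18321 and 18313 (WT red). The root markers did not move together: PYK10 was called higher (0.42) and SHR lower (-0.22). COBL9 (-0.46), PLT1 (-0.08) and SCR (0.01) did not pass. The part of these markers in the results for the members was not tested.

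Both bZIP factors rose. HY5 read 25.2 and 22.5 CPM for WT dark, 39.7 and 43.5 for WT red, 52.5 and 46.9 for phyB red, with 19.1 and 19.9 for phyAB red. The WT red and phyB red libraries lay above the others, and phyAB red lay below WT dark. HYH read 1.65 and 1.77 CPM for WT dark, 17.7 and 18.6 for WT red, 23.6 and 22.6 for phyB red, with 7.95 and 6.84 for phyAB red. Its WT red level was 10.6 times that in WT dark (3.40 ± 0.15, adjusted p = 4.8e-34), and that of HY5 was 1.74 times its dark level (0.80 ± 0.07, adjusted p = 2e-17). On the RPKM scale the mean levels of HYH and HY5 were 2.55 and 26.3 for WT dark, and 26.5 and 45.1 for WT red.

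**Figure D2:**
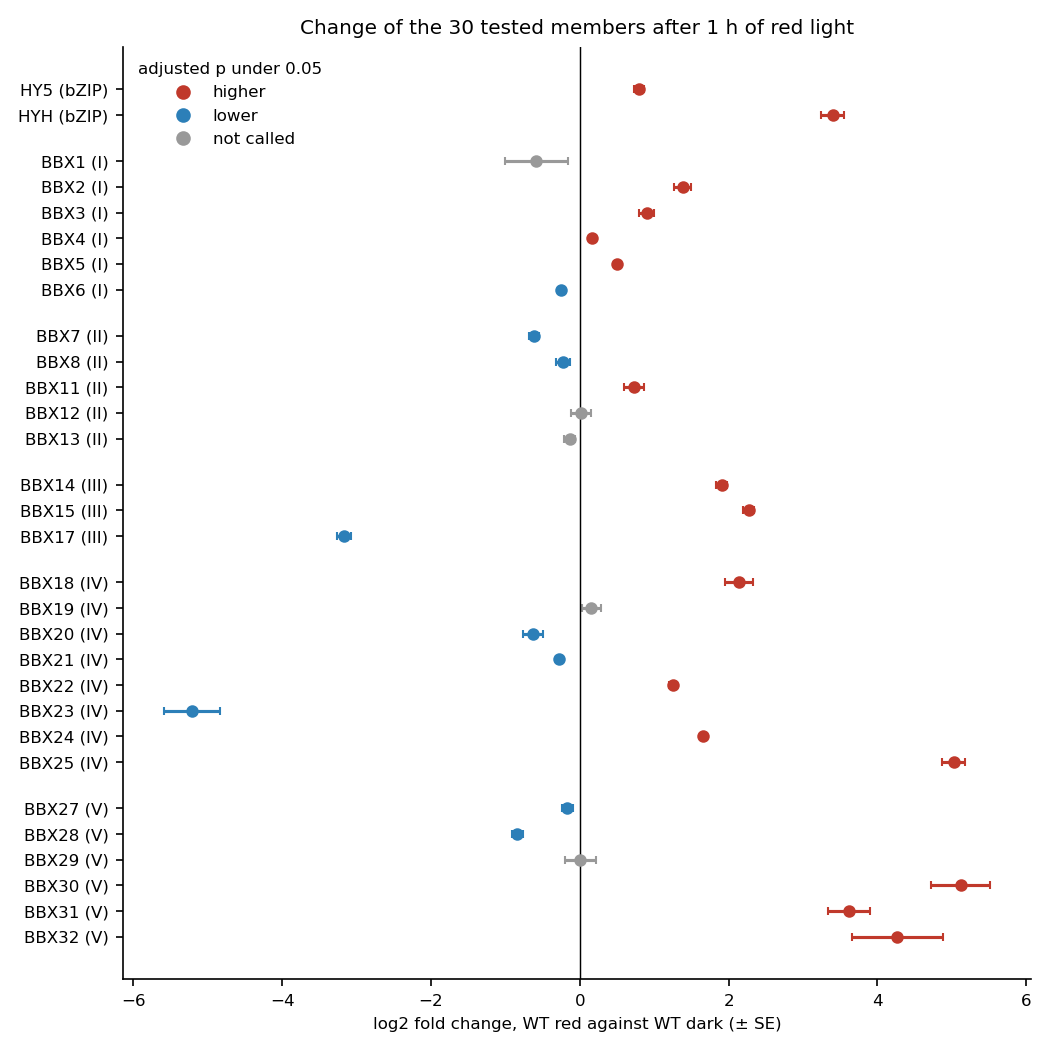
Log2 fold change ± SE of the 30 tested members in WT red against WT dark, grouped by structural class (in parentheses), with colour for the call. HY5, HYH and 14 B-box genes lie to the right of 0 as called; BBX17 and BBX23 lie farthest to the left, and the BBX32 value rests on 3 reads in WT dark.

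Class V microprotein genes and BBX32 were among the strongest risers from very low dark levels. BBX30 and BBX31 encode short proteins (117 and 121 residues) that are known to bind CO and bring it to the corepressor TOPLESS. BBX30 (AT4G15248) had 5 and 1 reads for WT dark, 104 and 94 for WT red, 95 and 87 for phyB red, with 37 and 26 for phyAB red. That is 0.250 and 0.054 CPM for WT dark, 5.39 and 5.89 for WT red, 5.92 and 3.91 for phyB red, with 1.67 and 1.53 for phyAB red, and WT red exceeded WT dark by 5.12 ± 0.39 (adjusted p = 2.44e-20). BBX31 (AT3G21890) read 0.351 and 0.698 CPM for WT dark, 5.54 and 7.46 for WT red, 6.92 and 6.56 for phyB red, with 2.08 and 2.06 for phyAB red, a rise of 3.62 ± 0.29 (adjusted p = 1.74e-19). For both genes all 6 red-treated libraries lay above both dark ones. BBX32 (AT3G21150), a repressor that acts with BBX21 and HY5, had 1 and 2 reads for WT dark, 29 and 28 for WT red, 19 and 24 for phyB red, with 14 and 15 for phyAB red, or 0.050 and 0.107 CPM for WT dark, 1.50 and 1.76 for WT red, 1.18 and 1.08 for phyB red, with 0.632 and 0.884 for phyAB red. Its WT red to WT dark ratio was 20.8 with a 95% exact binomial counting interval of 6.77 to 104 (adjusted p = 4.36e-09).

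Of the 8 class IV genes, 4 rose, each at least 2-fold, and 3 fell. BBX25 (AT2G31380), or STH, a repressor closely related to BBX24, read 1.30 and 0.644 CPM for WT dark, 31.8 and 32.9 for WT red, 34.3 and 33.9 for phyB red, with 7.41 and 9.78 for phyAB red. It rose by 5.03 ± 0.15 (adjusted p = 2.77e-46), the greatest change of the class in that direction. BBX24 (AT1G06040) read 128 and 129 CPM for WT dark, 408 and 403 for WT red, 453 and 458 for phyB red, with 149 and 150 for phyAB red, a rise of 1.66 ± 0.03 (adjusted p = 5.03e-61). The libraries of each group lay close together, and phyAB red was near WT dark. BBX22 (LZF1, AT1G78600), a promoter of light-type growth, read 26.2 and 26.5 CPM for WT dark, 63.3 and 62.1 for WT red, 80.0 and 81.7 for phyB red, with 35.0 and 36.5 for phyAB red, and rose by 1.25 ± 0.06 (adjusted p = 8.88e-34). BBX18 (AT2G21320), a repressor, read 2.40 and 2.31 CPM for WT dark, 11.9 and 8.78 for WT red, 9.11 and 8.32 for phyB red, with 4.20 and 5.19 for phyAB red, and rose by 2.14 ± 0.18 (adjusted p = 6.07e-18). Among promoters of light-type growth in the same class, BBX20 (-0.62 ± 0.13) and BBX21 (-0.28 ± 0.03) fell modestly. The repressor BBX19 (0.16 ± 0.13, adjusted p = 0.345) did not pass.

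BBX23 (AT4G10240), a promoter of light-type growth that acts with HY5, moved opposite to these genes. It had 112 and 140 reads for WT dark, 3 and 3 for WT red, 1 and 1 for phyB red, with 104 and 96 for phyAB red, or 5.61 and 7.52 CPM for WT dark, 0.155 and 0.188 for WT red, 0.062 and 0.045 for phyB red, with 4.70 and 5.66 for phyAB red. The gene was nearly absent from WT red and phyB red and stood at a similar level in WT dark and phyAB red. WT red was lower than WT dark by a log2 change of -5.21 ± 0.37 (adjusted p = 5.45e-22). BBX17 (AT1G49130), of class III, read 55.3 and 52.1 CPM for WT dark, 6.63 and 5.20 for WT red, 7.55 and 8.32 for phyB red, with 14.4 and 14.0 for phyAB red. It fell in WT red by a log2 change of -3.17 ± 0.09 (adjusted p = 2.5e-47), and each red-treated library was below both dark libraries. The other tested genes of class III went up. BBX14 (AT1G68520) read 14.7 and 15.7 CPM for WT dark, 55.5 and 58.5 for WT red, 80.0 and 69.2 for phyB red, with 28.7 and 29.0 for phyAB red, and rose by 1.91 ± 0.07 (adjusted p = 3.22e-40). BBX15 (AT1G25440) read 9.77 and 10.3 CPM for WT dark, 46.8 and 50.2 for WT red, 48.4 and 47.3 for phyB red, with 24.1 and 22.9 for phyAB red, and rose by 2.27 ± 0.08 (adjusted p = 1.04e-42). In RPKM, the BBX17 mean went from 53.0 (WT dark) to 5.72 (WT red).

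**Figure D3:**
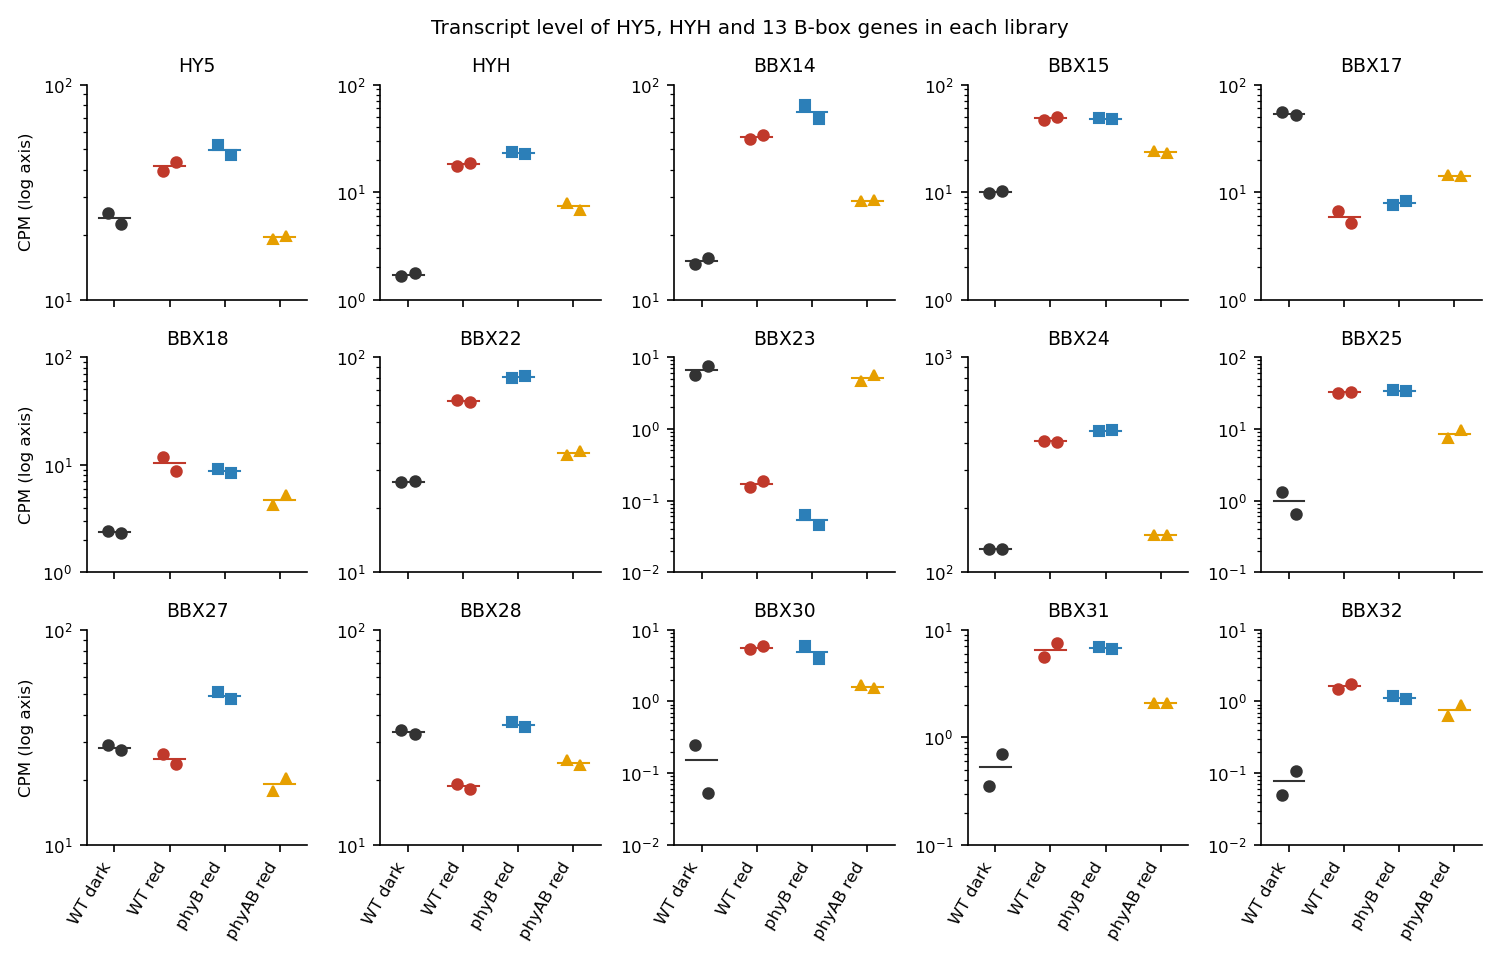
CPM (log axes, scaled separately) of HY5, HYH and 13 B-box genes in each of the 8 libraries; short lines are group means. BBX23 drops to 0.155 and 0.188 CPM in WT red, and stands at 4.70 and 5.66 in phyAB red.

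The flowering-time classes I and II moved less. BBX2 (COL1, AT5G15850), the neighbour of CO, read 6.21 and 7.20 CPM for WT dark, 17.2 and 17.7 for WT red, 20.0 and 19.9 for phyB red, with 11.6 and 12.4 for phyAB red. It rose by 1.38 ± 0.11 (adjusted p = 1.44e-18), and all red-treated libraries exceeded the dark ones. An annotated gene on the other strand, AT5G15845, covers the whole of BBX2, and their reads cannot be told apart without strand. BBX3 (COL2, 0.90 ± 0.10), BBX5 (COL4, 0.50 ± 0.03) and BBX11 (0.73 ± 0.13) also rose, and BBX4 (COL3) rose slightly (0.17 ± 0.05). BBX6 (COL5, -0.25 ± 0.03), BBX7 (COL9, -0.61 ± 0.07) and BBX8 (-0.22 ± 0.09) fell. BBX5 and BBX7 are known as repressors of flowering. CO itself (BBX1, AT5G15840), the photoperiod switch of flowering, differed by -0.58 ± 0.42 (adjusted p = 0.266) on few reads and did not pass, nor did BBX12 (0.02) or BBX13 (-0.14). In class V, the HY5-inhibiting factor BBX28 fell by a log2 change of -0.84 ± 0.07 and BBX27 by -0.17 ± 0.07, and BBX29 (0.01 ± 0.21) did not pass.

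Some calls of small changes in this contrast depended on single libraries. The BBX4 call was lost without WT dark replicate 1 (adjusted p = 0.134) or WT red replicate 1 (0.0648), and the BBX8 call without WT dark replicate 1 (0.237) or WT red replicate 2 (0.219) and with DESeq2 (0.127). BBX27 passed narrowly (adjusted p = 0.0498) and was lost without WT dark replicate 1 (0.135), WT red replicate 2 (0.408), phyB red replicate 1 (0.057) or replicate 2 (0.0545), with DESeq2 (0.145) and with no filter on low counts. BBX13 passed without WT red replicate 1 (adjusted p = 0.0236).

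The members too low to test are given as reads. BBX26 had 0 reads in all 8 libraries, which allows a level of up to 0.0198 CPM over their summed total. BBX9 had 1 read in all, in WT dark replicate 2, and BBX10 had 0 and 2 reads for WT dark, 0 and 0 for WT red, 0 and 4 for phyB red, with 0 and 0 for phyAB red. BBX16, of class III, had 1 and 0 reads for WT dark, 8 and 7 for WT red, 7 and 4 for phyB red, with 1 and 5 for phyAB red, and its WT red to WT dark ratio was 16.4 with a counting interval of 2.53 to 691. These intervals, and the floor, cover counting error only.

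Between phyB red and WT red most members did not pass the test. In phyB red against WT red, 10 members were higher, 1 was lower and 19 did not pass, so that 36.7% were called beside 27.1% of all genes (13.1% higher and 14.0% lower). The median log2 fold change was 0.07, beside 0.0019 over all genes, and 0 members were called at least 2-fold higher or lower, beside 1.16% and 1.06% of all genes. The largest called changes were in class V. BBX27 (AT1G68190) read 29.0 and 27.6 CPM for WT dark, 26.4 and 23.7 for WT red, 51.1 and 47.6 for phyB red, with 17.9 and 20.6 for phyAB red, higher in phyB red than in any other library and by 0.97 ± 0.07 against WT red (adjusted p = 6.67e-22). BBX28 (AT4G27310) read 34.2 and 32.9 CPM for WT dark, 19.2 and 18.2 for WT red, 37.1 and 35.3 for phyB red, with 24.8 and 23.4 for phyAB red, and phyB red exceeded WT red by 0.94 ± 0.07 (adjusted p = 2.2e-19). BBX28 in phyB red differed from WT dark by 0.10 ± 0.06 (adjusted p = 0.176), which did not pass. Of the 5 root markers, PYK10 was lower in phyB red than in WT red (-0.72), and COBL9 (0.08), PLT1 (-0.12), SCR (-0.10) and SHR (-0.03) did not pass. PYK10 gave nearly all of their sum, which was 18321 and 18313 CPM in WT red and 11149.5 and 11197 in phyB red. Of the 5 shoot markers, the 4 photosynthesis genes were higher in phyB red and the meristem gene STM was lower (-0.53 ± 0.15, adjusted p = 0.0052), with a sum of 3210.1 and 3191 CPM. The part of these markers in the results was not tested.

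HY5 (0.25 ± 0.06, adjusted p = 0.000722) and HYH (0.35 ± 0.09, adjusted p = 0.00279) lay somewhat above their WT red level. So did BBX6 (0.37 ± 0.03), BBX14 (0.38 ± 0.05), BBX17 (0.42 ± 0.13), BBX22 (0.37 ± 0.05), BBX24 (0.17 ± 0.03) and BBX4 (0.16 ± 0.04). BBX7 was the 1 member called lower (-0.36 ± 0.08, adjusted p = 0.00013). BBX25 (0.08 ± 0.08), BBX15 (-0.02 ± 0.06), BBX30 (-0.23 ± 0.20) and BBX31 (0.06 ± 0.17), strong risers in wild type, did not differ beyond the threshold. BBX23 had 6 reads over the WT red libraries and 2 over those of phyB red, a ratio of 3.26 with a counting interval of 0.582 to 33.0.

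Some of these calls depended on 1 library. HY5 was not called without phyB red replicate 1 (adjusted p = 0.0728) or WT red replicate 1 (0.0806), HYH not without WT red replicate 1 (0.0629), BBX4 not without WT red replicate 2 (0.0818), and BBX17 not without WT red replicate 2 (0.237) or phyB red replicate 2 (0.174). Conversely BBX13 passed without WT red replicate 2 (0.019) or phyB red replicate 1 (0.0262), BBX18 without WT red replicate 2 (0.0358) and BBX12 without phyB red replicate 2 (0.0453).

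With both phytochromes mutated, most of the set stood lower in red light. In phyAB red against WT red, 19 members were lower, 6 were higher and 5 did not pass, or 83.3% called beside 45.0% of all genes (22.3% higher, 22.7% lower). The median log2 fold change was -0.46, and that of all genes 0.0026. Changes of at least 2-fold were called for 9 members downwards and 2 upwards, beside 2.95% and 4.10% of all genes. This contrast shares the WT red libraries with both contrasts above. The summed seed markers stood at 57.7 and 58.8 CPM in phyAB red, against 1.71 to 2.95 in the other 6 libraries. All 4 tested seed markers were higher in phyAB red than in WT red, and SESA1, with 0 reads in several libraries, was not tested. All 5 shoot markers were lower in phyAB red than in WT red, with a sum of 1439 and 1444 CPM. The part of either in the results for these members was not tested.

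HY5 fell to 0.469 of its WT red level (-1.09 ± 0.07, adjusted p = 1.01e-23) and HYH to 0.412 (-1.28 ± 0.11, adjusted p = 6.82e-17). BBX25 (-1.93 ± 0.10), BBX30 (-1.80 ± 0.24), BBX31 (-1.63 ± 0.21) and BBX24 (-1.44 ± 0.03) showed the greatest falls. BBX18 (-1.16 ± 0.16), BBX15 (-1.04 ± 0.07), BBX14 (-0.98 ± 0.06) and BBX22 (-0.81 ± 0.05) followed, with BBX32 at -1.12 ± 0.38. In class I, BBX2 (-0.55 ± 0.10), BBX3 (-0.52 ± 0.09), BBX5 (-0.52 ± 0.03), BBX6 (-0.33 ± 0.03) and BBX4 (-0.11 ± 0.05) were lower. So were BBX11 (-0.54 ± 0.13), BBX20 (-0.36 ± 0.15) and BBX27 (-0.40 ± 0.08).

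BBX23 and BBX17 were the members called at least 2-fold higher. BBX23 was higher in phyAB red than in WT red by 4.86 ± 0.39 (adjusted p = 4.53e-19), and BBX17 by 1.25 ± 0.12 (adjusted p = 7.65e-16). BBX28 (0.37 ± 0.08), BBX8 (0.22 ± 0.09), BBX21 (0.16 ± 0.03) and CO (0.96 ± 0.40) were also higher. BBX7 (0.07), BBX12 (-0.05), BBX13 (-0.03), BBX19 (-0.15) and BBX29 (0.07) did not pass.

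The calls of CO, BBX4, BBX8, BBX20 and BBX32 in this contrast were fragile. They passed at adjusted p = 0.0418, 0.0419, 0.0432, 0.0433 and 0.012, and with DESeq2 the values were 0.149, 0.161, 0.174, 0.145 and 0.0923. CO was also lost without WT dark replicate 2 (0.0502), WT red replicate 2 (0.306), phyAB red replicate 1 (0.0938) or replicate 2 (0.146). BBX4, BBX8 and BBX20 were each lost without WT red replicate 1 (0.332, 0.0545 and 0.719), phyAB red replicate 1 (0.247, 0.0831 and 0.053) or phyAB red replicate 2 (0.0563, 0.154 and 0.2), and BBX8 also without WT red replicate 2 (0.237). BBX32 was lost without WT red replicate 2 (0.0937) or phyAB red replicate 1 (0.171).

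The mutants, which by their names differ in phytochrome A, were also compared directly. In phyAB red against phyB red, 20 members were lower and 5 higher, or 83.3% called beside 50.1% of all genes (26.0% higher, 24.1% lower), with a median of -0.58 beside 0.0074. HY5 (-1.34 ± 0.07, adjusted p = 1.92e-30) and HYH (-1.63 ± 0.11, adjusted p = 1.37e-23) were lower in phyAB red. BBX25 (-2.01 ± 0.10), BBX31 (-1.70 ± 0.21), BBX24 (-1.61 ± 0.03), BBX30 (-1.57 ± 0.25), BBX27 (-1.36 ± 0.07), BBX14 (-1.36 ± 0.06), BBX22 (-1.18 ± 0.05) and BBX15 (-1.02 ± 0.06) were at least 2-fold lower. BBX23 was higher, with 200 reads in phyAB red and 2 in phyB red, a ratio of 97.9 with a counting interval of 26.7 to 814. BBX17 (0.83 ± 0.11), BBX8 (0.44 ± 0.09), BBX7 (0.43 ± 0.08) and BBX21 (0.23 ± 0.03) were higher as well. The BBX11 call (-0.31 ± 0.13, adjusted p = 0.0386) was lost without phyB red replicate 1 (0.155), phyB red replicate 2 (0.0587) or phyAB red replicate 1 (0.238), and with DESeq2 (0.124). BBX12 passed without phyB red replicate 2 (0.0425), and BBX13 without phyB red replicate 1 (0.0276) or phyAB red replicate 2 (0.0145).

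Against WT dark, the wild type and both mutants can be placed side by side, bearing in mind that they share the WT dark libraries and that the mutants' own dark level is not analysed here. In phyB red 19 members were higher and 7 lower than in WT dark, or 86.7%, beside 54.5% of all genes (27.4% higher, 27.1% lower). In phyAB red 12 were higher, 8 lower and 10 not called, or 66.7%, beside 48.2% of all genes (27.2% higher, 21.0% lower). The median log2 fold change of the members was 0.48 in phyB red and 0.07 in phyAB red, while that of all genes was 0.0052 and 0.0432.

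**Figure D4:**
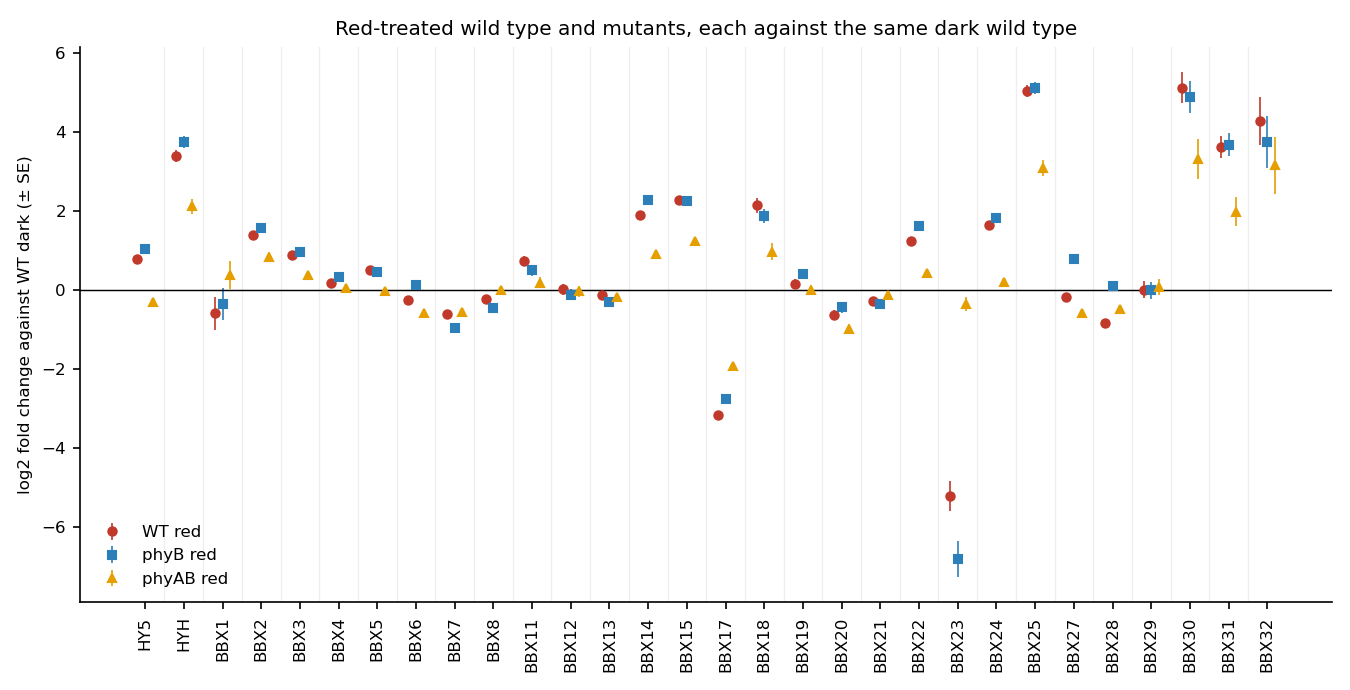
Log2 fold change ± SE of each tested member against WT dark in WT red (circles), phyB red (squares) and phyAB red (triangles), which share the same 2 dark libraries. BBX24 lies at 1.66, 1.83 and 0.22 and BBX25 at 5.03, 5.11 and 3.10; values of BBX23 in phyB red and of BBX32 are fitted on 2 or 3 reads in a group.

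The members still higher in phyAB red than in WT dark fell into several levels. BBX25 (3.10 ± 0.20), BBX30 (3.32 ± 0.51), HYH (2.12 ± 0.18), BBX31 (1.98 ± 0.36) and BBX15 (1.23 ± 0.09) were at least 2-fold higher, and so was BBX32 with a ratio of 9.54 and a counting interval of 2.96 to 48.9. In phyB red the BBX32 ratio was 14.5, with an interval of 4.63 to 72.8. BBX18 (0.98 ± 0.21), BBX14 (0.93 ± 0.08), BBX2 (0.83 ± 0.12), BBX22 (0.44 ± 0.06), BBX3 (0.38 ± 0.10) and BBX24 (0.22 ± 0.04) were higher by less than 2-fold. BBX5 (-0.03 ± 0.03, adjusted p = 0.565), BBX4 (0.06 ± 0.05, adjusted p = 0.311) and BBX11 (0.19 ± 0.14, adjusted p = 0.252) did not pass. HY5 was lower than in WT dark (-0.30 ± 0.08, adjusted p = 0.001), whereas in WT red and phyB red it was higher (1.05 ± 0.07 in phyB red).

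Of the members that red light lowered in wild type, BBX17 was also lower than WT dark in phyB red (-2.75 ± 0.09) and in phyAB red (-1.92 ± 0.08). BBX23 in phyAB red differed from WT dark by -0.35 ± 0.18 (adjusted p = 0.112), while WT dark exceeded phyB red by a ratio of 125 with a counting interval of 34.2 to 1038. BBX20 was lower in all red-treated groups, at -0.62 (WT red), -0.44 (phyB red) and -0.98 (phyAB red). BBX7 was too, at -0.61, -0.97 and -0.54, and so was BBX21, at -0.28, -0.35 and -0.12. BBX28 was lower than WT dark in phyAB red (-0.47 ± 0.07) and not called in phyB red (0.10). BBX8 was lower in phyB red (-0.44 ± 0.09) and not called in phyAB red (-0.01). BBX27 went in opposite directions in the mutants, at 0.80 ± 0.06 for phyB red and -0.57 ± 0.08 for phyAB red, and BBX6 likewise at 0.12 ± 0.03 and -0.59 ± 0.03. The BBX6 call in phyB red was lost without WT dark replicate 1 (adjusted p = 0.116) and the BBX13 call (-0.31 ± 0.07) without phyB red replicate 2 (0.0675), while BBX12 passed there without phyB red replicate 2 (0.0255). In phyAB red BBX3 was lost without WT dark replicate 1 (0.0994) or phyAB red replicate 2 (0.153), and BBX23 passed without WT dark replicate 1 (0.0264). BBX13 (-0.17 ± 0.07, adjusted p = 0.0541) passed there without WT dark replicate 2 (0.0435), WT red replicate 1 (0.0447), WT red replicate 2 (0.0498) or phyAB red replicate 1 (0.00665).

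BBX30 and BBX31 each lie next to an untested class II gene. BBX30 (TAIR10.1, chr4:8708841-8709482, plus strand) ends 284 bases from the 3′ end of BBX9 (chr4:8709767-8711526, minus strand). BBX31 (chr3:7708833-7709933, minus) ends 486 bases from the 3′ end of BBX10 (chr3:7706257-7708346, plus). In both pairs the short class V gene held the reads, since BBX9 and BBX10 had 1 and 6 reads in all libraries together. CO and BBX2 are also neighbours, 3005 bases apart. BBX30 and BBX31 each have 1 annotated exon and the shortest coding regions of the family. HYH (149 residues) and HY5 (180 residues) are shorter than every class I to III member, which range from 294 to 433 residues.

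No exact coding stretch of 50 bases was shared between any of the members. Overlap with other annotated genes was common: 13 of the 34 members overlap one on the assembly, and whether strand was used in counting is not given in the sources used here, so reads from the overlap cannot be told apart. They are CO, BBX2, BBX3, BBX8, BBX9, BBX11, BBX12, BBX14, BBX17, BBX20, BBX24, BBX25 and BBX32. BBX2 is overlapped along its whole length of 1807 bases by AT5G15845 on the other strand, and CO by AT5G15843 along 1967 bases. BBX24 overlaps AT1G06045 by 344 bases, and BBX3 overlaps AT3G02370 by 771 and AT3G02390 by 688. BBX25 overlaps AT2G31390 by 48 bases, and that neighbour changed by -0.10 ± 0.04 in WT red against WT dark. HY5, HYH, BBX15, BBX22, BBX23, BBX30 and BBX31 overlap no other gene.

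Genes around the family in its pathway were read from 3 lists, whose counts stand beside the shares and medians of all genes given above for each contrast. The COP1 list holds 11 genes. They are COP1 and SPA1 to SPA4, of the ligase that degrades HY5, with DET1, COP10, DDB1A, CUL4, RUP1 and RUP2. In WT red against WT dark 7 were higher and 1 lower, with a median log2 of 0.39. RUP2, a repressor of UV-B signalling, rose by 3.33 ± 0.13, and the COP1 partners SPA1 (1.97 ± 0.04), SPA3 (1.62 ± 0.07) and SPA4 (1.05 ± 0.10) rose too. In phyAB red against WT red 0 were higher and 8 lower (median -0.28), with RUP2 at -1.56, SPA1 at -1.36, SPA3 at -1.02 and SPA4 at -0.83. In phyB red against WT red 4 were higher and 1 lower (median 0.14), and SPA1 (0.07), SPA3 (0.09) and SPA4 (0.14) did not pass.

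**Figure D5:**
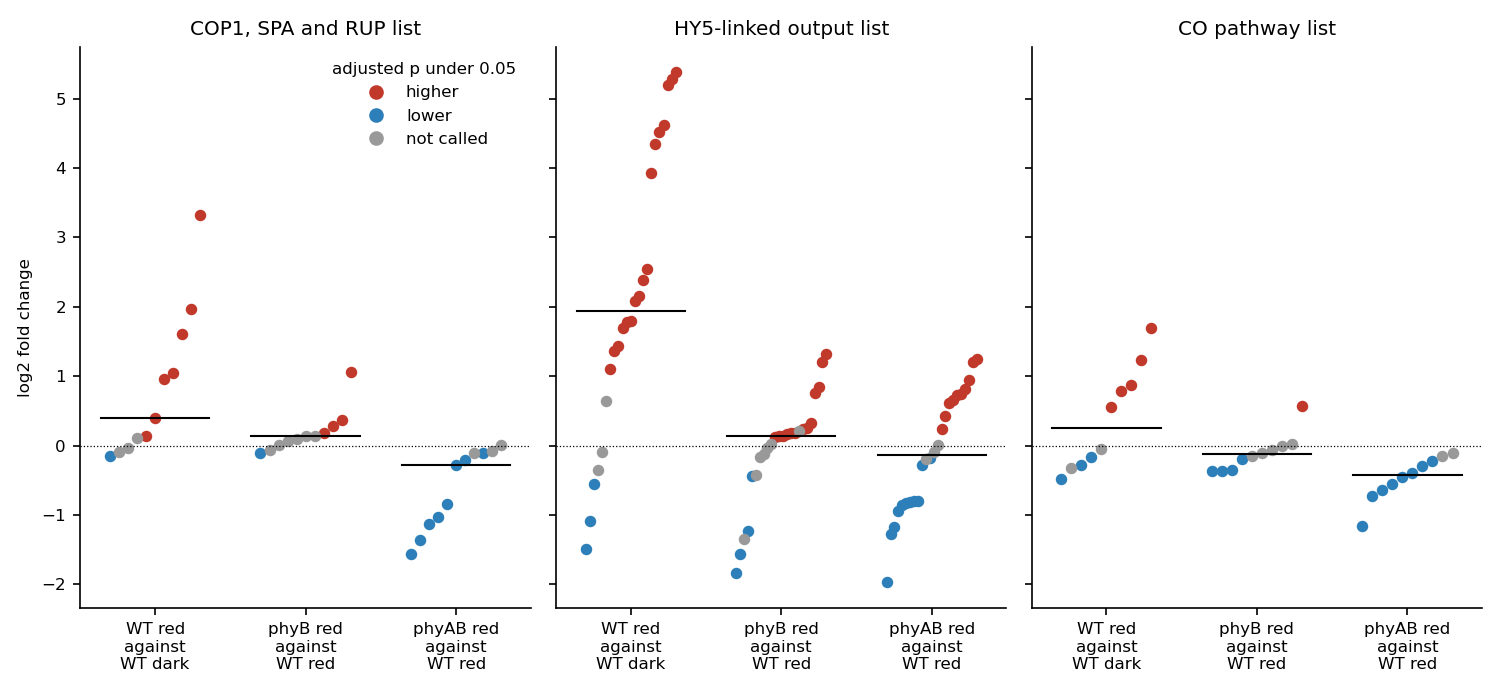
Log2 fold changes of the tested genes of 3 lists in 3 comparisons, one point per gene with colour for the call and a line at the median. The median of the HY5-linked list is 1.94, 0.14 and -0.13; LDOX, with 0 reads in WT dark, is not drawn in the first comparison, and the comparisons share the WT red libraries.

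The HY5-linked list holds 24 genes known as targets or outputs of HY5. Most belong to pigment, chloroplast and nitrate metabolism, while ABI5, FHY1 and FHL do not. In WT red against WT dark 18 were higher and 3 lower, with a median of 1.94 that was the same with LDOX at its bound. The 3 lower genes were ABI5 (-0.55 ± 0.16), FHY1 (-1.08 ± 0.07) and FHL (-1.49 ± 0.18). ELIP1 (5.38 ± 0.10) and ELIP2 (5.19 ± 0.08), which encode light-stress proteins of the thylakoid, and CHS (5.29 ± 0.08), the entry enzyme of flavonoid synthesis, were among the strongest risers. LDOX encodes a late anthocyanin enzyme, had 0 reads for WT dark, and was at least 31.0-fold higher in WT red against a floor of 3 reads over the group, so that it cannot be ranked among them. In phyB red against WT red 13 were higher and 4 lower (median 0.14). In phyAB red against WT red the list split into 10 higher and 11 lower, with a median of -0.13. ELIP2 fell there by a log2 change of -1.17 ± 0.05, CHS was at 0.01 ± 0.04 (adjusted p = 0.851), and ELIP1 (0.24 ± 0.05) and LDOX (0.95 ± 0.24) were higher.

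The CO list holds 11 genes upstream or downstream of CO, of which 10 were tested. In WT red against WT dark 5 were higher and 3 lower (median 0.25). CDF1 (1.70 ± 0.16) and CDF3 (1.23 ± 0.07), repressors of CO transcription, SOC1 (0.87 ± 0.12), a flowering activator, and the clock gene GI (0.79 ± 0.04) rose most. In phyAB red against WT red 0 were higher and 8 lower (median -0.42), with CDF3 at -1.15 and GI at -0.64. In phyB red against WT red 1 was higher and 4 lower (median -0.13). FT, the florigen gene that CO activates in leaves, was at 0.31 to 0.64 CPM in all libraries and was not called in any of these 3 contrasts.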

How the data were processed

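The deposited data are 1 file per library, 8 in all, with a read count and an RPKM value for 27416 gene models, per the file headers. The deposited counts are raw whole numbers. RPKM was calculated by the authors from reads, gene model length and library total. Genome build TAIR10 is named in the submitters' processing notes. Not given in the sources used here are the aligner, counting tool, annotation release, strandedness and treatment of multiply mapping reads.

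The counts were modelled with edgeR 4.0.16 under R 4.3.3. The function filterByExpr (minimum count 10) chose the genes, libraries were scaled by TMM, and 1 model of 4 group means was fitted to all 8 libraries with the quasi-likelihood test. The 6 contrasts were adjusted by Benjamini-Hochberg over 20716 genes. SE is the size of the log2 value over the root of F. The script was also run on counts simulated with the spread fitted to these libraries. That run cannot show whether this spread covers separate cultures. Depth was 15926547 to 22116924 reads per library. For a group with 0 reads, 3 counts served as its floor, and ratios with 1 to 3 reads in a group carry a 95% exact binomial interval. RPKM was used for levels between genes and for sums, without a test.

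Values in every library are given for HY5, HYH, members with a called change of at least 2-fold in 1 of the first 4 contrasts and members at or under 10 reads. BBX16 and BBX28 are outside this rule and were added after their values were seen. From each list the 4 called genes with the greatest change in wild type are named. The seed, shoot and root markers, FT, ABI5, FHY1 and FHL are named beside them. The gene codes use no measured value, but the set and the lists were chosen with earlier results of these data known. Sequences and positions come from the RefSeq annotation of TAIR10.1, read with Python 3.11.15. The alternatives were DESeq2 size factors, no filter, the DESeq2 1.42.0 Wald test, the replicate number as a block, and leaving out each library.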

Additional observations from a re-analysis of the deposited data

How the results depend on the processing

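Over 12 alternatives, 2160 member values were recomputed. Of these, 2096 stayed on the same side of the threshold, 48 calls were lost and 16 were gained. Among values called in the main fit or the alternative, 0 turned direction. Sign changes of values called in neither were not counted. With the DESeq2 Wald test, 3660 genes were called in phyB red against WT red in place of 5608. Leaving out 1 library at a time gave 22 to 25 called members for WT red against WT dark, 9 to 11 for phyB red against WT red, 20 to 25 for phyAB red against WT red, 24 to 26 for phyAB red against phyB red, 25 to 26 for phyB red against WT dark and 19 to 21 for phyAB red against WT dark. With a library left out, the lone library of its group is assumed to vary like the others. With the replicate block, BBX13 in phyAB red against WT dark was called (-0.17 ± 0.07, adjusted p = 0.0322, and 0.0541 without the block), as it was with DESeq2 size factors (0.0349), and 21 members were called there in place of 20. In the other 5 contrasts the replicate block gave the same number of called members. The labels do not say that replicate numbers mark a shared batch. The differences between library 1 and library 2 correlated at -0.027 to 0.012 between groups over 13631 genes. The spread fitted beyond counting error was small (common coefficient of variation 1.59%), so these correlations cannot show whether the numbers pair the libraries. Depth limits BBX9, BBX10, BBX16, BBX23, BBX26, BBX30 and BBX32, each with 6 reads or fewer in at least 1 group.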
